A study of Rattus norvegicus with 15 samples.

Results

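ESR1, PGR, PRLR, FOXA1, GREB1, TNFSF11, WNT4 and PROM1, the genes of the estrogen, progesterone and prolactin receptor programme, were followed in mammary tumours of Fischer rats. They were chosen by symbol as the hormone receptors, the pioneer factor and the hormone-response genes of the mammary epithelium. Of the 8 symbols, 7 were matched among the 17463 gene symbols counted, and GREB1, an estrogen-induced co-regulator gene, is not analysed here. Of the 7, 6 were kept by the expression filter, and TNFSF11 had no count in any library.

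The tumours were induced with N-nitroso-N-methylurea (NMU), a methylating carcinogen that gives mammary tumours in rats, injected intraperitoneally at 50 mg/kg on 2 occasions. The midkine group (9 tumour libraries) received midkine protein, a heparin-binding growth factor, in doses of 300 ug/kg, given 3 times weekly over the 2 weeks ahead of either NMU injection. The vehicle group (6 tumour libraries) is labelled vehicle and carries the same protocol text. All libraries are poly(A) RNA from a piece of a tumour, so epithelial, connective tissue and immune cells were read together. The labels give neither the age of the animals nor which tumours came from the same rat. Some titles share a number (midkine 3-1 and 3-2, midkine 4-1, 4-2 and 4-3, vehicle 2-1 and 2-2), and no label says whether this marks an animal. The study's title names midkine as a driver of more mammary tumours.

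In the mammary gland, estrogen and progesterone act through nuclear receptors that bind DNA and switch genes on or off. The receptors are made by a minority of luminal cells, the hormone-sensing cells, which pass the signal to their neighbours as secreted factors. Prolactin binds a cell-surface receptor of the cytokine receptor family, which signals through the kinase JAK2 and the transcription factors STAT5A and STAT5B. NMU-induced rat mammary tumours are a classic model of hormone-dependent growth.

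Promoter windows were taken from RefSeq (assembly GRCr8) to show the sequence in front of the 3 receptor genes. They hold the 250 bases before an annotated start, and 6 of the 8 symbols had at least 1 such window, 8 windows in all. The capitals mark a match to TTCNNNGAA, the element that STAT5 proteins bind, to TATAAA, the TATA box, or to GGGCGG, the box bound by Sp1, on either strand. The ESR1 window lies at chr1:43641845-43642094, the second PRLR window at chr2:60909409-60909658 and the PGR window at chr8:14354148-14354397, all on the plus strand.
ESR1: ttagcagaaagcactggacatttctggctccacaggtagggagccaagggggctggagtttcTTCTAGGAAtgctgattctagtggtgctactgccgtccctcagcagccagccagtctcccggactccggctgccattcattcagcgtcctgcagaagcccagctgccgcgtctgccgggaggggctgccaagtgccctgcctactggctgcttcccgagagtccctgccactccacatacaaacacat
PRLR: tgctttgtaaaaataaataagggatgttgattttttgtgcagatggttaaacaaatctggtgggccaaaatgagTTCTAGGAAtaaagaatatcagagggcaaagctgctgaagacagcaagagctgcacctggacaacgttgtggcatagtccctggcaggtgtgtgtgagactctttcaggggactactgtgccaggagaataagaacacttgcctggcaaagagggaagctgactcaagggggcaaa
PGR: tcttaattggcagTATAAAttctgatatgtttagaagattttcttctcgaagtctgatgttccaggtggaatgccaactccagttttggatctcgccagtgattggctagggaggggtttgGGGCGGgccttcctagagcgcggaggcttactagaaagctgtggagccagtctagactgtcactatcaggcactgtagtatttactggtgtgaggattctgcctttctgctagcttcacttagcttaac

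The ESR1 window and the second PRLR window held the same 9 bases, TTCTAGGAA, starting 188 and 176 bases before the start. The first PRLR window, not shown, held no match to TTCNNNGAA, which occurred in 7.67% of all 33469 windows. The PGR window held a TATA box at 237 bases and an Sp1 box at 129 bases before its start. TATAAA was found in 12.9% and GGGCGG in 30.5% of all windows. The palindromic estrogen response element (GGTCA, any 3 bases, TGACC) was in none of the 8 windows and in 0.0239% of all. GGTCA alone (35.4% of all windows, and part of that palindrome), the progesterone receptor core ACANNNTGT (5.81%) and the GATA motif AGATAA (10.3%) were in none of the 8 either. TGTTTAC, the forkhead motif bound by FOXA1, was in 3.21% of all windows and in the second PROM1 window. These are matches of letters in short windows and do not show binding.

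The libraries held 4925504 to 8486523 counted reads (median 7252603), with 13056 to 13665 genes detected. Midkine 1, 4-2 and 5 stood apart by a low level of epithelial genes, and midkine 1 also by its muscle reads, 424500 of MYH4 alone. The results are given with and without these 3 libraries further on.

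All 6 genes had lower fitted levels in midkine than in vehicle tumours, at 0.504 to 0.689 times the vehicle level, and none of them passed the test. At a Benjamini-Hochberg adjusted p of 0.05 by edgeR's quasi-likelihood test, 0 of the 6 members and 0% of the 11665 genes tested were called. The median log2 fold change was -0.77 over the 6 genes and 0.04 over all genes tested, of which 44.3% had a negative value. At an unadjusted p of 0.05, 1 of the 6 (WNT4) was lower, against 2.13% of all genes lower and 7.96% higher at that level. Midkine and vehicle libraries overlapped for all 6 genes, and 0.0171% of all genes tested had no overlap. DESeq2 also called 0 of the 6, with 0.0432% of 13887 genes called lower and 0.619% called higher. In bulk tumours, fewer hormone-sensing cells and less receptor RNA per cell cannot be told apart.

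**Figure D1:**
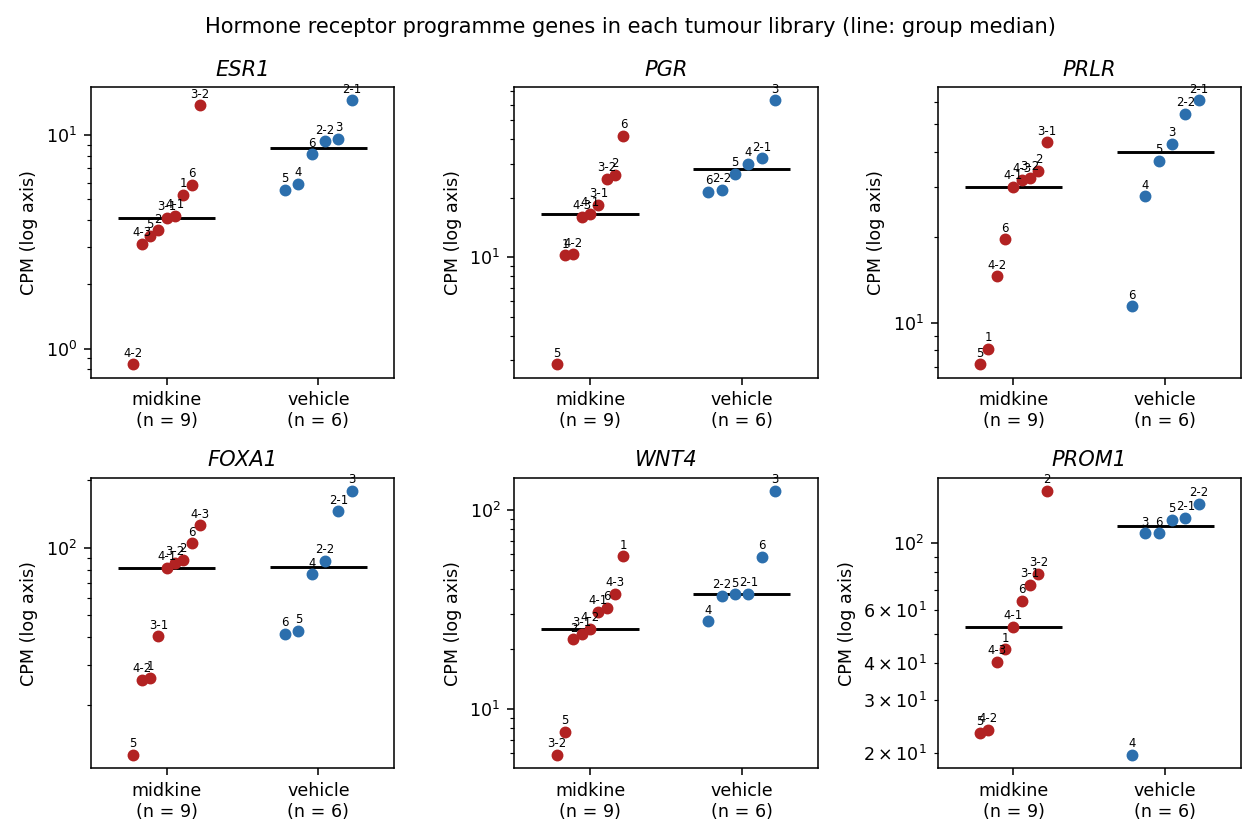
Level of each of the 6 measured genes (CPM, log axis) in every midkine library (red, n = 9) and vehicle library (blue, n = 6), with the title number beside each point and a line at the group median. The groups overlap for every gene, and midkine 5 is lowest for PGR, PRLR and FOXA1.

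Levels are given as CPM, counts relative to a library size that trimmed-mean (TMM) scaling adjusts. Transcript lengths were not used, so levels are compared between libraries for the same gene and never between genes.

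ESR1 encodes the nuclear receptor for estrogen and was the most thinly counted of the 6, with 7 to 113 reads in midkine and 28 to 117 reads in vehicle libraries. Its level ran from 0.842 through a median of 4.10 to 13.8 CPM in midkine tumours, and from 5.55 through a median of 8.74 to 14.5 CPM in vehicle tumours. Of the 9 midkine libraries, 7 lay below the lowest vehicle library, while midkine 3-2 stood near the highest vehicle library, vehicle 2-1. The mean was 4.90 ± 3.62 CPM in midkine tumours (SD, n = 9) and 8.84 ± 3.26 CPM in vehicle tumours (SD, n = 6). The log2 fold change was -0.85 (SE 0.42, 95% interval -1.75 to 0.05, edgeR adjusted p = 0.525). Without midkine 3-2 it was -1.23 (SE 0.34, edgeR adjusted p = 0.463). The lowest level, in midkine 4-2, rests on 7 reads, for which the exact Poisson 95% interval is 0.338 to 1.73 CPM. That of midkine 3-2 is 11.4 to 16.6 CPM, and both intervals cover counting error only.

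PGR encodes the progesterone receptor, itself a well-known estrogen-induced gene. It ran from 2.85 through a median of 16.6 to 41.6 CPM in midkine tumours, and from 21.6 through a median of 28.3 to 62.9 CPM in vehicle tumours. There were 6 midkine libraries below the lowest vehicle library, and the lowest by far was midkine 5, with 16 reads. Its mean was 18.6 ± 11.3 CPM in midkine tumours (SD, n = 9) and 32.5 ± 15.5 CPM in vehicle tumours (SD, n = 6). The log2 fold change was -0.80 (SE 0.41, 95% interval -1.68 to 0.08, edgeR adjusted p = 0.549). It was -0.50 (SE 0.42) without vehicle 3, the highest library.

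PRLR encodes the prolactin receptor. It stood at 7.12, 30.0 and 43.1 CPM (lowest, median, highest) in midkine tumours and at 11.4, 39.8 and 60.5 CPM in vehicle tumours. The midkine libraries fell into 6 between 19.6 and 43.1 CPM and 3 at or below 14.6 CPM (midkine 1, 4-2 and 5), while vehicle 6 was the lowest vehicle library. The log2 fold change was -0.67 (SE 0.41, 95% interval -1.52 to 0.19, edgeR adjusted p = 0.614).

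FOXA1 encodes the forkhead pioneer factor that opens chromatin for the estrogen receptor. Its medians were close, at 81.7 CPM in midkine and 81.7 CPM in vehicle tumours, while the lowest and highest libraries were at 11.9 and 126 CPM in midkine tumours and at 41.4 and 179 CPM in vehicle tumours. Only 5 of 9 midkine libraries lay below the vehicle median. FOXA1 had the smallest fold change of the 6 in size, a log2 value of -0.54 (SE 0.47, 95% interval -1.54 to 0.46, edgeR adjusted p = 0.760). It was -0.26 (SE 0.49) without vehicle 3.

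The 2 secreted messengers of the hormone-sensing cell differed in whether they were seen at all. TNFSF11 encodes RANK ligand, which in mice carries the progesterone signal to neighbouring cells. It was listed at 0 counts in all 15 libraries, and a count of 0 allows up to 3 counts, or 0.354 to 0.609 raw CPM per library and 0.0285 raw CPM over all libraries. These bounds cover the sampling of reads only. Whether TNFSF11 reads could be counted at all with the annotation used was not tested. Its receptor gene TNFRSF11A (RANK) was measured, at 29.6 ± 13.6 CPM in midkine tumours (SD, n = 9) and 34.3 ± 9.88 CPM in vehicle tumours (SD, n = 6), with a log2 fold change of -0.21 (SE 0.30, edgeR adjusted p = 0.868). TNFRSF11B, which encodes the decoy receptor osteoprotegerin, had a log2 fold change of 0.79 (SE 0.51, edgeR adjusted p = 0.642), and of 1.34 (SE 0.49) without vehicle 4.

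WNT4, a Wnt ligand gene induced by progesterone in the mouse mammary gland, had the largest fold change of the 6 in size. It ran from 5.86 through a median of 25.3 to 58.6 CPM in midkine tumours, and from 27.6 through a median of 37.7 to 125 CPM in vehicle tumours. The midkine libraries below the lowest vehicle library numbered 5, with midkine 3-2 and midkine 5 far below the rest, while midkine 1 was second only to vehicle 3 among all 15. Its mean was 27.2 ± 15.9 CPM in midkine tumours (SD, n = 9) and 53.9 ± 36.1 CPM in vehicle tumours (SD, n = 6). The log2 fold change was -0.99 (SE 0.44, 95% interval -1.92 to -0.06, unadjusted p = 0.0392 and adjusted p = 0.470 by edgeR). Without vehicle 3 it was -0.55 (SE 0.42, edgeR adjusted p = 0.709).

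PROM1 encodes prominin-1 (CD133), a surface glycoprotein that marks hormone-sensing luminal cells in mice. It stood at 23.3, 52.5 and 149.5 CPM (lowest, median, highest) in midkine tumours and at 19.6, 114 and 135 CPM in vehicle tumours. In each group 1 library stood apart: midkine 2 above all others, and vehicle 4 below all others, with the other vehicle libraries between 108 and 135 CPM. The log2 fold change was -0.74 (SE 0.41, 95% interval -1.62 to 0.14, edgeR adjusted p = 0.581). It was -1.03 (SE 0.37) without midkine 2 and -0.96 (SE 0.36) without vehicle 4.

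The members varied widely among tumours. The highest library exceeded the lowest by 7.61 times for PROM1, 8.50 for PRLR, 15 for FOXA1, 17.3 for ESR1, 21.3 for WNT4 and 22.1 for PGR. The standard deviation of log2 CPM over the 15 libraries was 0.93 for ESR1, 0.94 for PRLR, 0.98 for PROM1, 1.01 for PGR, 1.06 for WNT4 and 1.07 for FOXA1, against a median of 0.51 over all genes tested. Among genes within 0.5 log2 units of its mean level, FOXA1 was more variable than 97.0% of 2304 and ESR1 more variable than 61.3% of 1037. The spread in log2 CPM within a group was wider in midkine than in vehicle tumours for ESR1 (0.95 and 0.49), PGR (1.07 and 0.56), PRLR (0.93 and 0.87), FOXA1 (1.15 and 0.87) and WNT4 (1.05 and 0.77), and narrower for PROM1 (0.85 and 1.06). These spreads were not compared by a test.

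**Figure D2:**
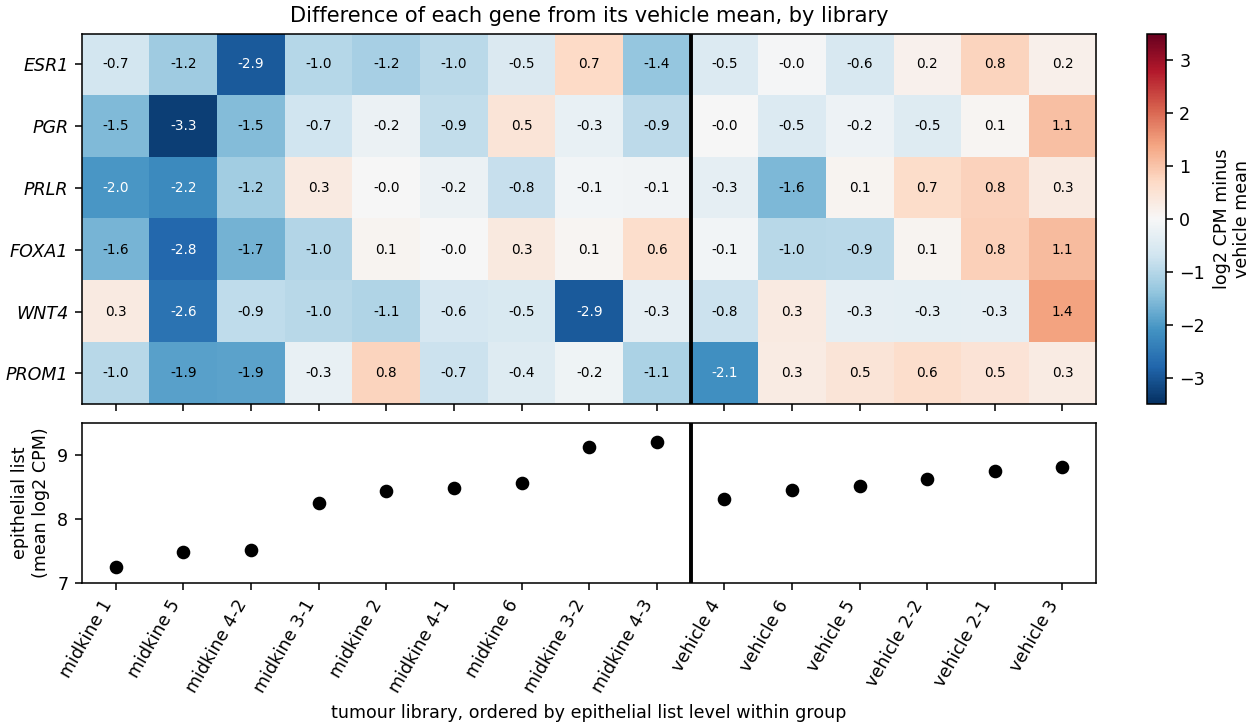
Difference of log2 CPM from the vehicle mean for each gene (rows) in each library (columns, midkine left and vehicle right, each ordered by epithelial list level), with the mean log2 CPM of the epithelial list below. Midkine 4-1, 4-2 and 5 and vehicle 4 are below the vehicle mean for all 6 genes. PGR in midkine 5 is at -3.28, and WNT4 in midkine 3-2 is at -2.94.

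A few libraries recurred at the ends of these ranges. Midkine 5 was among the 3 lowest libraries for all 6 genes, midkine 4-2 for 4 and midkine 1 for 3. Averaged over the 6 genes, the difference in log2 CPM from the vehicle mean was -2.33 in midkine 5, -1.68 in midkine 4-2 and -1.09 in midkine 1. It was between -0.60 and -0.25 in the other 6 midkine libraries. These 6 lay within the range of the vehicle libraries, from -0.64 in vehicle 4 to 0.73 in vehicle 3. Vehicle 2-1 and vehicle 3 were among the 3 highest libraries for 5 and 4 genes.

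The genes did not move as a block in every tumour. In midkine 3-2, the difference from the vehicle mean was 0.70 for ESR1 and -2.94 for WNT4, in log2 CPM. In midkine 1 it was 0.32 for WNT4 and -2.05, -1.63 and -1.54 for PRLR, FOXA1 and PGR. In midkine 4-3 it was 0.61 for FOXA1 and -1.36 for ESR1. Libraries that share a title number differed by up to 4.98 times (ESR1 in midkine 4-1, 4-2 and 4-3) and by as little as 1.02 times (WNT4 in vehicle 2-1 and 2-2).

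Among the 15 pairs of members, 3 correlations of log2 CPM over the 15 libraries passed at an adjusted p of 0.05. They were PGR with FOXA1 (r = 0.84, permutation p adjusted over the 15 pairs 0.00120, raw p = 8.00e-05; rho = 0.71, adjusted permutation p = 0.0334), PRLR with FOXA1 (r = 0.77, raw permutation p = 0.00103, adjusted 0.00772; rho = 0.61, adjusted 0.0691) and PGR with PRLR (r = 0.68, raw permutation p = 0.00351, adjusted 0.0175; rho = 0.55, adjusted 0.105). By rank, ESR1 with PGR (rho = 0.68, adjusted permutation p = 0.0334; r = 0.54, adjusted 0.0949) and PRLR with PROM1 (rho = 0.68, adjusted 0.0334; r = 0.57, adjusted 0.0673) also passed. WNT4 had r between 0.12 (with ESR1) and 0.49 (with PGR), and no pair with WNT4 passed.

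The pairs no longer passed when the most extreme libraries were left out. Without the 2 libraries farthest from the median of the first gene, none of the 15 pairs passed, with r = 0.65 for PGR with FOXA1, 0.54 for PRLR with FOXA1 and 0.49 for PGR with PRLR. Without midkine 1, 4-2 and 5, the libraries of lowest epithelial level, the same 3 pairs had r = 0.50, 0.38 and 0.09 over 12 libraries, and none of the 15 passed. Within the midkine group alone (n = 9), PGR with FOXA1 had r = 0.86 (exact permutation p = 0.00234, adjusted 0.0351). Within the vehicle group alone (n = 6) it had r = 0.75 (exact permutation p = 0.05, adjusted 0.599). Within the 10 libraries with MYH4 reads, described further on, it had r = 0.92 (permutation p = 1.40e-04, adjusted 0.00210).

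The members were set beside the other cells of the tumour pieces by lists of marker genes. The epithelial list (13 of 14 genes tested, none at 0 in every library) summed to 2867 to 13866 CPM in midkine tumours and 6444 to 9043 CPM in vehicle tumours. Its mean log2 CPM was 7.26 in midkine 1, 7.49 in midkine 5 and 7.52 in midkine 4-2, and between 8.25 and 9.20 in the other 12 libraries. The basal and myoepithelial list (11 of 11 tested) summed to 2616 to 21743 CPM in midkine and 6531 to 15169 CPM in vehicle tumours, and the luminal secretory list (8 of 10) to 392 to 9588 CPM in midkine and 403 to 6270.5 CPM in vehicle tumours. Fibroblast genes (9 of 10) summed to 288 to 131409 CPM in midkine and 562 to 8917 CPM in vehicle tumours, and endothelial genes (9 of 9) to 154 to 923 CPM in midkine and 145 to 385 CPM in vehicle tumours. By fitted value 10 of the 13 epithelial, 6 of the 8 luminal secretory and 9 of the 11 basal genes were lower in midkine tumours, and all 9 fibroblast and all 9 endothelial genes were higher, none of them past the test. Macrophage genes (10 of 10) summed to 311 to 1699 CPM in midkine and 233 to 629 CPM in vehicle tumours, T and NK cell genes (10 of 10) to 31.6 to 1469.5 CPM in midkine and 30.4 to 79.9 CPM in vehicle tumours. Adipocyte genes (4 of 8) summed to 45.0 to 907 CPM in midkine and 55.5 to 168 CPM in vehicle tumours, and skeletal muscle genes (9 of 10) to 35.9 to 359686 CPM in midkine and 382 to 819 CPM in vehicle tumours. Of the B cell list 1 of 6 genes was tested, at 1.90 to 219.9 CPM in midkine and 0.844 to 4.32 CPM in vehicle tumours. All tested genes of these 5 lists had higher fitted values in midkine tumours and none passed. For skeletal muscle this direction depends on midkine 1: without it 6 of the 9 genes were higher and 3 lower. Other lists kept their direction but shrank in size with 1 library left out. Without midkine 4-2 the log2 fold change of the B cell gene was 1.09, from 3.31, and the T and NK cell median 1.39, from 2.53. Without midkine 5 the fibroblast median was 0.58, from 1.45. The mean log2 CPM of the muscle list was 4.83 ± 4.18 in midkine tumours (SD, n = 9) and 5.08 ± 0.40 in vehicle tumours (SD, n = 6). The luminal keratin gene KRT8 (log2 fold change 0.34, SE 0.41) and the proliferation marker gene MKI67 (-0.16, SE 0.46) did not pass either. KRT8 was at 0.02 (SE 0.34) without midkine 4-3, and MKI67 was at 0.08 (SE 0.48) without vehicle 3.

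With the epithelial list level as a covariate, all 6 genes kept a negative log2 fold change, and 5 of them moved towards 0. The values were -0.67 (SE 0.40) for ESR1, -0.54 (SE 0.37) for PGR, -0.38 (SE 0.34) for PRLR, -0.22 (SE 0.31) for FOXA1 and -0.52 (SE 0.42) for PROM1. WNT4 alone did not shrink in size, at -1.05 (SE 0.49, edgeR unadjusted p = 0.0489, adjusted p = 0.616), where 2.37% of all genes were lower at an unadjusted p of 0.05. Without midkine 1, 4-2 and 5 the values were -0.57 (SE 0.40) for ESR1, -0.41 (SE 0.31) for PGR, -0.27 (SE 0.32) for PRLR, -0.10 (SE 0.37) for FOXA1 and -0.40 (SE 0.40) for PROM1. WNT4 was at -1.07 (SE 0.43, edgeR unadjusted p = 0.0271, adjusted p = 0.588). Midkine 5, 4-2 and 1 also had the lowest averages over the 6 genes, at -2.33, -1.68 and -1.09 from the vehicle mean in log2 CPM. In this fit a low epithelial level and low member levels therefore cannot be told apart. The part of the other marker lists in the fold changes was not tested.

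**Figure D3:**
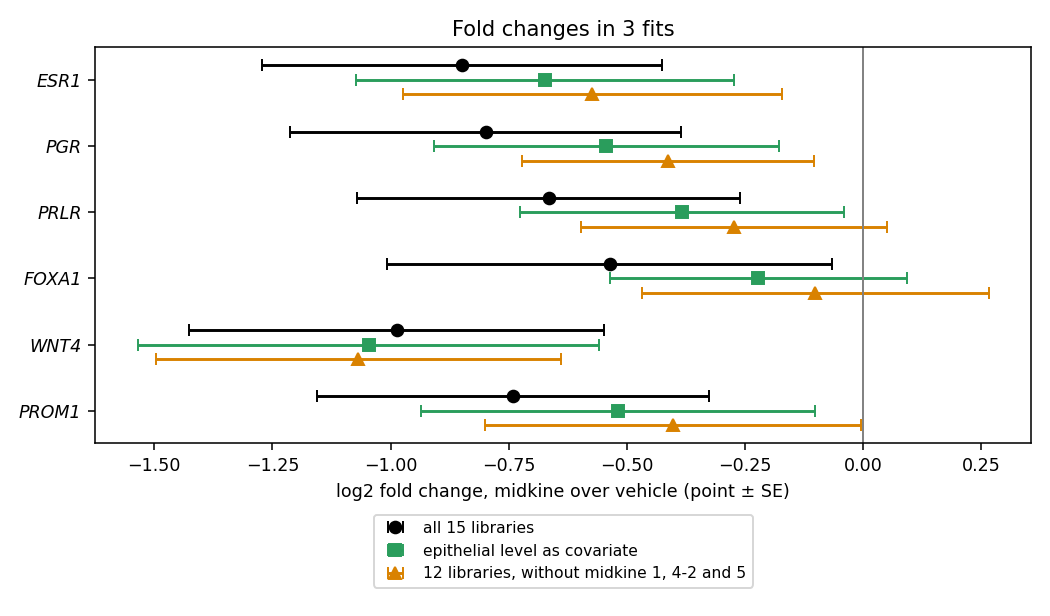
Log2 fold change of midkine over vehicle (point, with bars of 1 SE) for the 6 genes in 3 edgeR fits: all 15 libraries, all with the epithelial level as covariate, and 12 libraries without midkine 1, 4-2 and 5. FOXA1 goes to -0.10 in the last fit, and WNT4 lies between -1.07 and -0.99 in all 3.

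The 12 libraries outside that low group were used for the relation of single members to the epithelial level, since the 3 low libraries form a cluster of their own. FOXA1 had r = 0.58 (raw permutation p = 0.0458, 0.247 adjusted over 54 relations of 6 genes with 9 marker lists; rho = 0.71, adjusted 0.305), and the other 5 had r between -0.16 (WNT4) and 0.29 (ESR1). After leaving out the 2 libraries of most extreme epithelial level, r was higher for every member, at 0.76 for FOXA1, 0.75 for ESR1, 0.69 for WNT4, 0.63 for PGR, 0.51 for PROM1 and 0.36 for PRLR. After adjustment over the 54, 0 relations of a member with a list passed in these 12 libraries by r or by rank. Over all 15 libraries 9 of the 54 passed by r and 2 by rank. They were the epithelial level with FOXA1 (adjusted permutation p = 0.00594, by rank 0.0103), PRLR (0.0275, by rank 0.129) and PGR (0.0361, by rank 0.144), for which no r over 15 libraries is given because of the cluster, and 6 negative relations. The adipocyte list had r = -0.77 with PGR (adjusted permutation p = 0.00756) and -0.76 with FOXA1 (0.0185), and the fibroblast list r = -0.71 with PROM1 (0.0248). The endothelial list had r = -0.68 with PROM1 (0.0377), -0.68 with PGR (0.0308) and -0.65 with WNT4 (0.0472). Of these 6, FOXA1 with the adipocyte list also passed by rank (rho = -0.77, adjusted permutation p = 0.0375). Midkine 1, 5 and 4-2 were also the 3 libraries of highest adipocyte list level, up to 6.77 in mean log2 CPM, with midkine 3-2 next at 5.26. The 15-library r values of the adipocyte list are therefore open to the same cluster as those of the epithelial level. In the 12 libraries the 6 had r from -0.62 (PROM1 with the fibroblast list) to -0.36 (FOXA1 with the adipocyte list). The adipocyte list had r = -0.46 with PGR there (adjusted permutation p = 0.473, and 0.603 for FOXA1). Leaving out the 2 libraries of most extreme list level from all 15 gave r from -0.64 to -0.39 for the 6. Leaving out such 2 from the 12 gave r from -0.79 (WNT4 with the endothelial list) to -0.36 (PGR with the endothelial list).

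**Figure D4:**
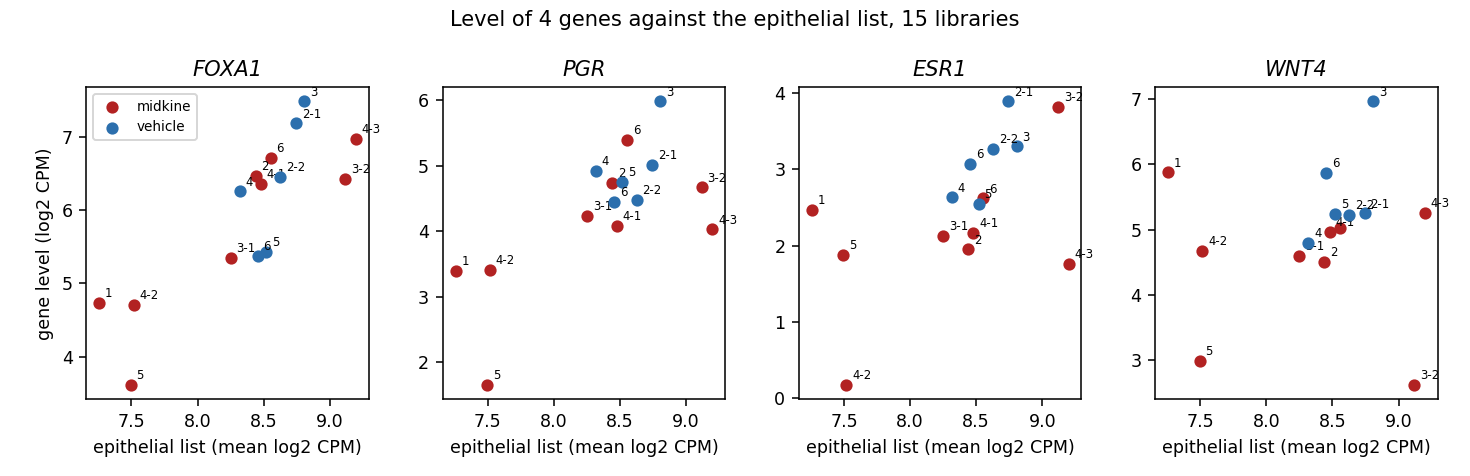
Level of FOXA1, PGR, ESR1 and WNT4 (log2 CPM) against the mean log2 CPM of the epithelial list in 15 libraries, midkine in red and vehicle in blue, with title numbers. Midkine 1, 5 and 4-2 lie apart at the left, at 7.26 to 7.52 on the horizontal axis, and WNT4 in midkine 1 is at the level of the vehicle libraries there.

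A divide by reads of MYH4, a fast-fibre muscle myosin gene, runs through the midkine group. MYH4 had more than 1 count in midkine 1, 2, 5 and 6 and in all 6 vehicle libraries. The other 5 midkine libraries held at most 1 count. It had 424500 counts in midkine 1 and 461 to 993 in the rest of those with more than 1. The summed muscle list overlapped across this divide, at 332 CPM in midkine 4-1 and 329 CPM in midkine 6. Midkine 3-1, 3-2, 4-2 and 4-3 were at 35.9 to 78.5 CPM. What sets the MYH4 counts was not tested. Within the 10 libraries with MYH4 reads the log2 fold change was -0.96 (SE 0.33, unadjusted p = 0.0145 and adjusted p = 0.407 by edgeR) for ESR1, -1.16 (SE 0.53) for PRLR, -0.66 (SE 0.59) for PGR, -0.71 (SE 0.62) for FOXA1, -0.83 (SE 0.56) for WNT4 and -0.53 (SE 0.55) for PROM1. None passed there, where 0% of 11611 genes were called and 2.72% were lower at an unadjusted p of 0.05. With libraries of 1 title number summed (6 midkine, 5 vehicle), ESR1 had -0.70 (SE 0.36) and WNT4 -1.05 (SE 0.51), and 0 of the 6 genes reached an unadjusted p of 0.05, against 1.56% of genes lower.

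Around the receptors, 21 of 23 listed partner and co-regulator genes were tested and 0 passed in either direction, with 14 lower and 7 higher in fitted value and a median log2 fold change of -0.19. GPER1, a membrane receptor for estrogen, stood at 2.67 ± 1.58 CPM in midkine tumours (SD, n = 9) and 6.44 ± 3.75 CPM in vehicle tumours (SD, n = 6), with a log2 fold change of -1.26 (SE 0.46, edgeR adjusted p = 0.399). GATA3, the luminal transcription factor that works with FOXA1 and ESR1, had -0.52 (SE 0.31, edgeR adjusted p = 0.603). XBP1, a luminal stress-response factor gene, had -0.37 (SE 0.21), or -0.57 (SE 0.13) without midkine 5, and the co-activator gene CITED1 had -0.19 (SE 0.53). ESR2, the gene of the second estrogen receptor, had at most 3 counts in any midkine and any vehicle library and was not tested.

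Of 25 listed estrogen targets 21 were tested, and 0 passed, with 8 lower and 13 higher in fitted value and a median log2 fold change of 0.11. CCND1, the cyclin D1 gene, stood at 584 ± 253 CPM in midkine tumours (SD, n = 9) and 1000.4 ± 248 CPM in vehicle tumours (SD, n = 6), with a log2 fold change of -0.78 (SE 0.27, edgeR adjusted p = 0.399). AREG, the gene of the growth factor amphiregulin through which estrogen acts on neighbouring cells in mice, had medians of 177 CPM in midkine and 419 CPM in vehicle tumours and a log2 fold change of -0.53 (SE 0.50, edgeR adjusted p = 0.780), or -0.82 (SE 0.47) without midkine 6. On the other side stood CCN5 (2.56, SE 0.88), RAB31 (0.72, SE 0.26) and FHL2 (1.21, SE 0.57). CCN5 was thinly counted, at 0.126 to 2.67 CPM in vehicle and 0 to 22.5 CPM in midkine libraries, highest in midkine 4-2 and 4-1. FHL2 reached 192 CPM in midkine 3-2 and at most 40.4 CPM in the other midkine libraries, and its value was 0.49 (SE 0.36) without midkine 3-2.

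For progesterone, 10 of 14 listed targets and RANK axis genes were tested and 0 passed, with 7 lower and 3 higher in fitted value and a median log2 fold change of -0.34. The clock gene PER1 had -0.54 (SE 0.22, edgeR adjusted p = 0.439) and the protease gene ADAMTS1 -0.86 (SE 0.47). The chemokine receptor gene CXCR4 had 1.12 (SE 0.52), and midkine 3-2 held 475 CPM of it, with no other midkine library above 176 CPM. Without midkine 3-2 the value of CXCR4 was 0.49 (SE 0.32), and without vehicle 5 that of ADAMTS1 was -0.39 (SE 0.45).

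The prolactin list had 16 of 18 genes tested and 0 called, with 7 lower and 9 higher in fitted value and a median log2 fold change of 0.05. STAT5A, the transcription factor that carries the prolactin signal to milk genes, stood at 167 ± 58.8 CPM in midkine tumours (SD, n = 9) and 305 ± 122 CPM in vehicle tumours (SD, n = 6). Its log2 fold change was -0.87 (SE 0.27, unadjusted p = 0.00504 and adjusted p = 0.399 by edgeR). JAK2 had -0.11 (SE 0.28) and the alveolar regulator gene ELF5 -0.45 (SE 0.71). The feedback inhibitor genes SOCS2 (0.94, SE 0.38) and SOCS3 (2.52, SE 0.85) had positive values. SOCS3 held 173 CPM in midkine 3-2 and at most 29.0 CPM in the other midkine libraries, and its value was 1.28 (SE 0.49) without midkine 3-2 and 1.24 (SE 0.47) by DESeq2. The milk protein gene CSN2 held 8276 CPM in midkine 5, where PRLR was lowest, and medians of 15.4 CPM in midkine and 4.04 CPM in vehicle tumours. Its log2 fold change was 5.39 (SE 2.10), and 0.95 (SE 1.07) without midkine 5. PRL, the gene of the hormone itself, was listed at 0 counts in all libraries.

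Among steroid-making and inactivating enzymes 11 of 14 were tested and 0 passed, with 7 lower and 4 higher in fitted value and a median log2 fold change of -0.05. SRD5A1, a steroid 5-alpha-reductase gene, had -0.63 (SE 0.25, edgeR adjusted p = 0.431), and STS, the steroid sulfatase gene, 0.63 (SE 0.30, edgeR adjusted p = 0.498). HSD17B4, a 17-beta-hydroxysteroid dehydrogenase gene, had -0.25 (SE 0.12), and CYP1B1, an estrogen-hydroxylating enzyme gene, 1.89 (SE 0.95). CYP1B1 held 104 CPM in midkine 3-2 and at most 18.8 CPM in the other midkine libraries, and its value was 0.73 (SE 0.72) without midkine 3-2 and 2.91 (SE 1.00) without vehicle 6. CYP19A1, the aromatase gene, had at most 1 count in any midkine and any vehicle library.

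**Figure D5:**
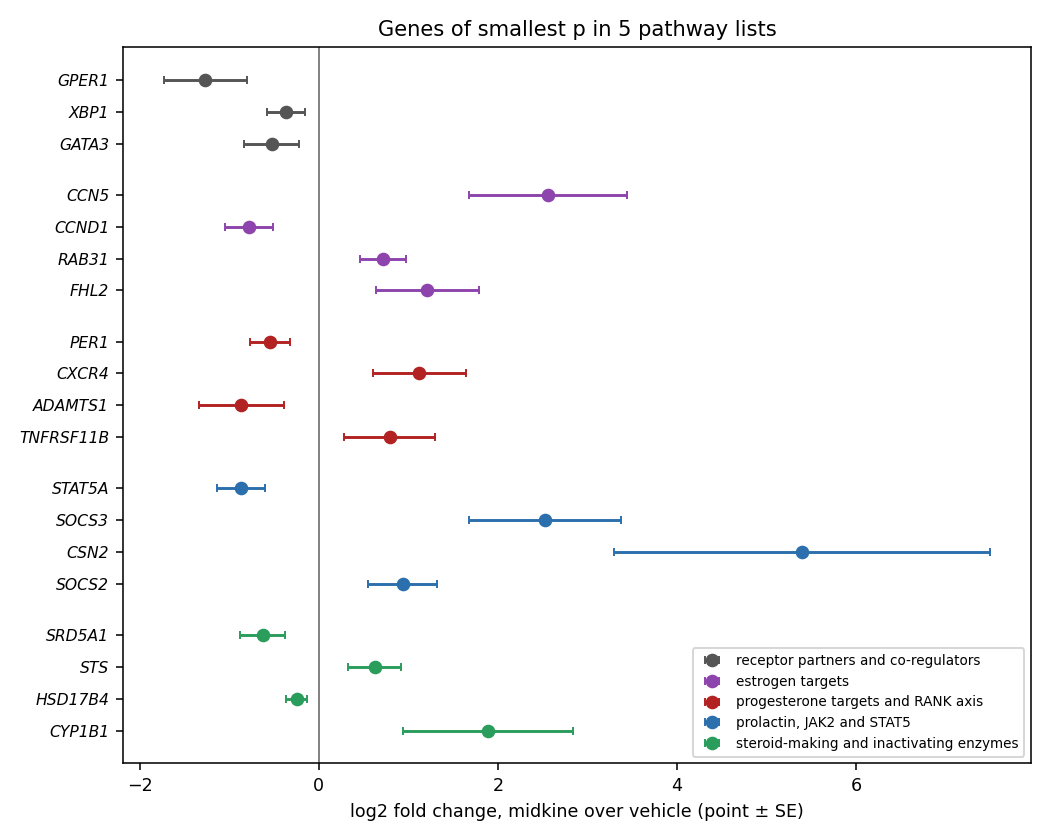
Log2 fold change of midkine over vehicle (point, with bars of 1 SE) for genes of smallest unadjusted p, 3 of the receptor partners and 4 of each of the other pathway lists. None passed over all genes, and the values run from -1.26 (GPER1) to 5.39 (CSN2, 0.95 without midkine 5).

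The genes whose levels were most like those of a receptor across the 15 libraries were picked by their Pearson r, so the values are a description. For PRLR they were SCNN1A, an epithelial sodium channel subunit gene (r = 0.93), CAPN8 (0.93), FLVCR2 (0.92), SRSF7 (0.92) and MAPK13 (0.90). SCNN1A kept r = 0.93 within the midkine and 0.93 within the vehicle libraries, and r = 0.85 in the 12 libraries without midkine 1, 4-2 and 5. For PGR they were CD200, a surface glycoprotein gene (r = 0.91), POLR1E (0.87), TMPRSS13 (0.87), SYT7 (0.85) and FARSA (0.85). In the 12 libraries CD200 had r = 0.70 with PGR, while the other 4 had 0.39 to 0.46. For ESR1 they were DAB2IP (r = 0.84), PLET1 (0.83), MAP7 (0.82), PRKCI (0.81) and CHMP4C (0.81), with 0.61 to 0.82 in the 12 libraries. No gene was in more than 1 of these lists of 5. The points share libraries and depth, and midkine 4-2 was lowest for all 5 genes like ESR1 and midkine 5 for all 5 like PGR and all 5 like PRLR within the midkine group.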

How the data were processed

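RNA was measured in 15 rat mammary tumour libraries. Per the labels' protocols, libraries were poly(A)-selected and read as 150-bp pairs on an Illumina HiSeq. The authors deposited whole-number, unnormalized read counts per gene symbol, per the file headers. The submitters' processing notes name the build rn6. Aligner version, annotation, strand and counting mode were not given in the sources used here, and reads of overlapping or antisense genes cannot be told apart. Nothing says that libraries come from separate animals, so p-values measure the spread between these libraries. Within groups, all 51 library pairs differed beyond sampling noise (smallest chi-square per degree of freedom 20.3).

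Genes passing edgeR's expression filter by group (11665) had library sizes scaled by TMM and were tested with the quasi-likelihood F test (edgeR 4.0.16, R 4.3.3) with Benjamini-Hochberg adjustment over all of them. A standard error is the fold change over the square root of F. Log2 CPM uses a prior count of 2. Correlations use 100000 permutations (exact under 10 libraries). Gene tests and correlations were tested on simulated data. Alternatives were DESeq2 1.42.0, limma 3.58.1 (voom), other scalings and filters, title-number blocks or sums, an epithelial covariate and leaving out libraries. Leaving out the 3 libraries of lowest epithelial level was chosen after seeing the data.

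The members and lists were chosen with earlier results of these data known. Named genes are the 8 members, the 4 of smallest p in each of 5 pathway lists (receptor partners, estrogen targets, progesterone targets and RANK axis, prolactin with JAK2 and STAT5, steroid enzymes), the 5 of highest r with ESR1, PGR and PRLR among genes with mean log2 CPM not under 0, and others (GATA3, AREG, TNFRSF11A, CITED1, JAK2, STAT5A, ELF5, KRT8, MKI67, MYH4). ESR2, PRL and CYP19A1 were named after their values were seen. Not every gene named by this rule is reported here.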

Additional observations from a re-analysis of the deposited data

Results flagged for a closer look

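In 5 of 12 combinations of gene and group, 1 library lay far from the others in CPM without log scaling. This was judged by its gap to the nearest library against the range of its group. Chance gives about 1 in 20 for normally distributed values, which CPM need not be. The rule was not applied to log2 CPM, where high values lie closer together. ESR1 stood at 13.8 CPM in midkine 3-2, with the next midkine library at 5.85 CPM. PROM1 stood at 149.5 CPM in midkine 2 (next 78.9 CPM). In the vehicle group, PROM1 stood at 19.6 CPM in vehicle 4 (next 108 CPM). PGR stood at 62.9 CPM and WNT4 at 125 CPM in vehicle 3, with the next vehicle libraries at 31.9 and 58.3 CPM.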

How the results depend on the processing

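All 162 member values under alternatives kept their negative direction and stayed short of the adjusted threshold. DESeq2 called 92 of all genes, where edgeR called 0 with 1178 at an unadjusted p under 0.05, and limma-voom called 0 with 602. No alternative called a member or a gene of the pathway lists. With 1 library left out, values ran from -1.23 to -0.65 for ESR1, -1.04 to -0.50 for PGR, -0.86 to -0.50 for PRLR, -0.71 to -0.26 for FOXA1, -1.20 to -0.55 for WNT4 and -1.03 to -0.63 for PROM1. Of the pairs of members, 9 passed with library totals alone in place of trimmed-mean scaling, 1 in the midkine libraries alone, and 0 in the vehicle libraries alone, without the 2 libraries farthest from the median, or without the 3 of lowest epithelial level. The cause was not tested. The sign of r turned for ESR1 with WNT4 (-0.33 in midkine libraries alone, -0.050 without the 3), PRLR with WNT4 (-0.0080 in midkine and -0.10 in vehicle libraries alone, -0.037 without the 3), PGR with PROM1 (-0.044 in vehicle libraries alone), PGR with WNT4 (-0.20 without the 2) and FOXA1 with PROM1 (-0.027 without the 3). Library totals alone moved the median log2 fold change of all genes to -0.10, from 0.04.

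With the title number as a replicate block the values were -0.85 for ESR1, -0.91 for PGR, -0.46 for PRLR, -0.53 for FOXA1, -1.41 for WNT4 and -0.35 for PROM1, with 0 genes called. Libraries with the same number in the 2 groups deviated together (r over 0.1) in 1 of 5 numbers. Among tumours that vary this widely, that cannot show what a shared number marks. Summing libraries of a title number (6 midkine, 5 vehicle) gave 0 calls. Other named genes that moved by over 1.5 times with 1 library left out ran from -0.38 to -0.04 (CITED1), -0.96 to -0.11 (ELF5), -0.38 to -0.03 (JAK2) and -0.36 to -0.05 (TNFRSF11A).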
